A study of Mus musculus with 21 samples.

Results

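The 10 RNAs described here, known mostly as noncoding and nuclear, were followed through whole-brain RNA-seq of 21 mice: Malat1, Neat1, Meg3, Rian, Mirg, Miat, Snhg11, Kcnq1ot1, Peg13 and Pantr1. They were taken by gene symbol from the deposited table, and all 10 of them were found among its 16318 genes and passed the low-count filter that left 16303 genes. The mice were of the SAMP8 strain, a senescence-accelerated line, and were 6 months old. HsTX1[R14A], a peptide that blocks the potassium channel of the Kcna3 gene (spelled HxTX1[R14A] in part of the sample titles), was given under the skin to 9 mice (3 females, 6 males) over 8 weeks, on alternate days, with a dose of 1 mg/kg. The 12 control mice (6 females, 6 males) received phosphate-buffered saline, PBS, instead. All mice carried the same strain background, and no mouse of another strain was analysed here. RNA came from whole tissue and not from isolated nuclei, so the place of these RNAs in the cell was not measured. In whole tissue, fewer cells that make an RNA and less of it per cell cannot be told apart.

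The RNAs differ in what they are known for. Malat1 lies in nuclear speckles, bodies rich in splicing factors, and Neat1 is the scaffold of paraspeckles, bodies built on its long form with proteins such as Sfpq and Nono. Meg3, Rian and Mirg come from the maternal copy of the imprinted Dlk1-Dio3 locus and carry microRNAs or small nucleolar RNAs (snoRNAs) in their introns and exons. Kcnq1ot1 is a very long imprinted antisense RNA that silences neighbouring genes on the paternal copy, and Peg13 is a paternally expressed RNA made inside the Trappc9 gene. Miat is a neuronal RNA, Snhg11 is a neuronal snoRNA host, and Pantr1 is transcribed next to Pou3f3, a transcription factor gene of neural progenitors and upper cortical layers. GENCODE M21 lists Snhg11 as protein-coding and the other 9 members as noncoding.

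All coordinates are from GRCm38. Malat1 (chr19:5795690-5802672) and Neat1 (chr19:5824708-5845478) are neighbours on the minus strand. Meg3 (chr12:109541001-109571726), Rian (chr12:109603940-109661716) and Mirg (chr12:109729764-109749460) follow one another on the plus strand. Peg13 (chr15:72805600-72810324) lies on the same strand as Trappc9 (chr15:72589620-73061204) and shares 0 exon bases with it, so it lies in an intron of Trappc9, and unspliced Trappc9 reads there cannot be told from Peg13. Kcnq1ot1 (chr7:143203458-143296549) is 1 exon of 93092 bases antisense to Kcnq1. Miat (chr5:112213228-112229395) shares 2260 exon bases with the antisense gene Gm26953, which is not among the genes used here. Whether the counting used strand is not given in the sources used here, so reads of antisense partners may be mixed. Snhg11 lies at chr2:158375638-158386145 and Pantr1 at chr1:42590782-42694842.

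Malat1 and Meg3 are shown first by their promoters, because their levels moved together most closely across the PBS mice. The windows are RefSeq's 250 bases before to 50 bases after the start in GRCm38.p6, for Meg3 at chr12:109540746-109541045 on the plus strand and for Malat1 at chr19:5802623-5802922 on the minus strand. Capitals mark TATAAA, TGACGTCA and CCAAT on either strand.
Meg3: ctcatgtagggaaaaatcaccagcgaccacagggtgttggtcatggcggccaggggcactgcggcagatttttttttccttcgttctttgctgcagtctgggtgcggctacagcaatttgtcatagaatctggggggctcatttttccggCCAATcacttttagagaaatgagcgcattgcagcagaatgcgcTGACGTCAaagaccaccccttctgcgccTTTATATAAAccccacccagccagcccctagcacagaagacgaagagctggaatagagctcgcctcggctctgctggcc
Malat1: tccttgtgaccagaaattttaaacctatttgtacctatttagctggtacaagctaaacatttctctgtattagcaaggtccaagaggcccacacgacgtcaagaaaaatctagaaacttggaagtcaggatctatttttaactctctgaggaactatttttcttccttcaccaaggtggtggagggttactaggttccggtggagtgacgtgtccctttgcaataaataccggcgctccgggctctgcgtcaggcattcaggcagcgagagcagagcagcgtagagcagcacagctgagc
The Meg3 window held TATAAA on both strands, in 2 overlapping matches, with 1 TGACGTCA and 1 CCAAT, and the Malat1 window held none of the 3 motifs. A second RefSeq window of Meg3, at chr12:109545148-109545447, also held none. Among all 32851 windows of this length, 13.6% held TATAAA, 1.79% held TGACGTCA and 37.4% held CCAAT. Windows were at hand for 7 members, and Neat1, Peg13 and Pantr1 had none.

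The 3′ ends show a limit of a gene-level count. Neat1 has a short form that is polyadenylated and a long form that is cut without a poly(A) signal, and both are summed in 1 count. The last 60 bases of the annotated transcripts follow, with AATAAA or ATTAAA in capitals where it lies in the last 40 bases. They end at chr19:5842307-5842366 for the short Neat1 form (3004 bases), chr19:5824708-5824767 for the long one (20771 bases), chr19:5795690-5795749 for Malat1 and chr15:72805600-72805659 for Peg13, all on the minus strand.
Neat1 short form: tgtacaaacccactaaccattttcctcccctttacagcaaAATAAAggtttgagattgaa
Neat1 long form: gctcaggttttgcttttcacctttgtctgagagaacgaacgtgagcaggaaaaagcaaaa
Malat1: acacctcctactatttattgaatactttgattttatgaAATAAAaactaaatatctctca
Peg13: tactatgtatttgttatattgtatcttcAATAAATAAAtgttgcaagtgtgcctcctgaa
The annotated ends of the short Neat1 form, Malat1 and Peg13 held AATAAA there, and that of the long Neat1 form held neither signal. Where these RNAs end in the brains, and whether the marked signals are used, was not measured, for Malat1 as for the others. Of the longest transcripts of 16239 genes, 69.7% held a signal in this window. The labels and the study's methods name different library kits, and whether poly(A) RNA was selected was not tested.

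The libraries held 14917174 to 47613792 counts. The labelled sex was matched in all 21 libraries, with Xist at 261 to 942 CPM (a count made relative to its library's total, with TMM factors, as for all CPM values here) in females and 0.16 to 3.39 in males, and Ddx3y at 0 to 0.504 in females and 42.4 to 98 in males. A pair of measures of the libraries, whose sources were not tested, stood beside the treatment. The first is the length slope, the slope of centred log2 CPM on log2 transcript length in each library, which is above 0 where long transcripts read high. It averaged -0.0764 ± 0.161 (SD) over the 12 PBS libraries. Over the 9 HsTX1[R14A] libraries it averaged 0.102 ± 0.119 (SD), a difference of 0.201 with the sexes averaged (exact permutation within sex over 77616 labelings, two-sided, p = 0.00631). The second is the form of the library name, with 10 PBS and 5 HsTX1[R14A] mice named SAMP8 and 2 and 4 named SAMP. Mitochondrial transcripts made up 9.3 to 20.2% of counts in PBS mice and 7.1 to 13.5% in HsTX1[R14A] mice.

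Per kilobase of exon, the members spanned from among the highest genes of the brain to below the median gene. Snhg11 led with 166 ± 28.3 CPM per kilobase in PBS mice (SD, n = 12), followed by Meg3 with 137 ± 42.1 and Malat1 with 113 ± 36.7. These 3 levels lay above those of 98.7%, 98.4% and 97.9% of genes. Peg13 followed with 49.2 ± 10.3, Rian with 35.2 ± 6.78, Miat with 18.1 ± 7.23 and Pantr1 with 10.2 ± 3.53. Neat1 had 4.51 ± 1.19, Mirg 2.91 ± 0.447 and Kcnq1ot1 1.13 ± 0.453 CPM per kilobase.

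Not every step of that order was larger than the spread between mice. Meg3 exceeded Malat1 in 12 of 12 PBS mice, by 0.29 ± 0.13 on the log2 scale (SD). Snhg11 exceeded Meg3 in 11 of 12 mice but by 0.32 ± 0.33, Peg13 exceeded Rian in 10 of 12 by 0.47 ± 0.57, and Miat exceeded Pantr1 in 9 of 12 by 0.78 ± 1.00. In these steps the mean difference was smaller than its SD between mice, and the mean difference itself was not tested. The order also depends on the length used, since with the longest transcript in place of the merged exons only 4 of the 10 members kept their rank and Rian moved to 79.3 CPM per kilobase of transcript. Across PBS mice Kcnq1ot1 and Miat varied most, with coefficients of variation of 40.2% and 39.9%, and Mirg least with 15.3%.

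**Figure D1:**
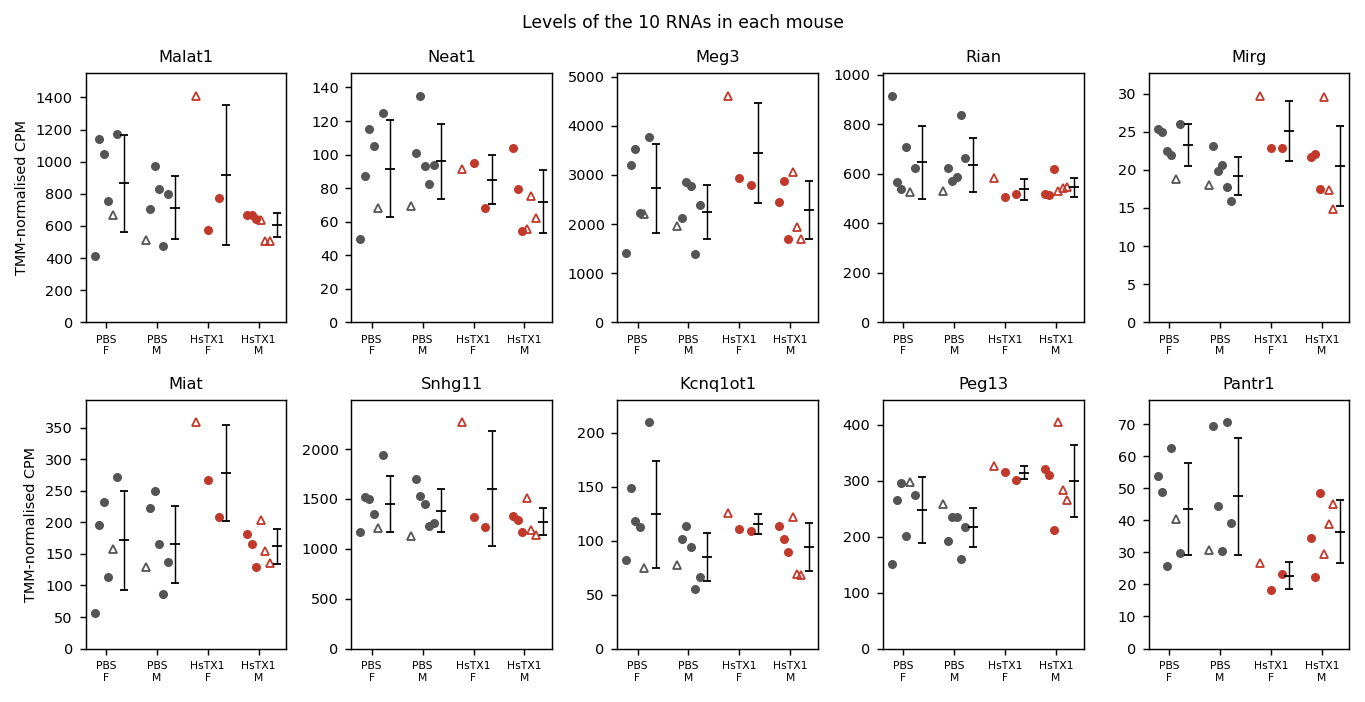
CPM of each member (vertical axis, from 0) in each mouse by treatment and sex (F, female; M, male), with PBS in grey and HsTX1[R14A] in red; filled circles are libraries named SAMP8, open triangles those named SAMP, and the bars beside them the mean and SD. Peg13 lies at 212 to 405 in HsTX1[R14A] mice and 152 to 298 in PBS mice, and Rian at 507 to 619 and 527 to 915.

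HsTX1[R14A] mice had a higher level of Peg13 and a lower level of Pantr1, and the other 8 members did not pass the test. The test was edgeR's quasi-likelihood test with sex and treatment in the model, with p-values adjusted by the Benjamini-Hochberg method over all 16303 genes and a threshold of 0.05. Among all genes, 31.6% passed it, 15.5% as higher and 16.1% as lower. One of 10 members in each direction is thus no larger a share than that of all genes.

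Peg13 was lowest at 152 CPM, had a median of 235 and was highest at 298 CPM in PBS mice. In HsTX1[R14A] mice its lowest value was 212, the median 310 and the highest 405 CPM. Of the 9 HsTX1[R14A] mice, 6 lay above every PBS mouse, 3 lay within the PBS range, and HsTX1[R14A] male 93 was the lowest. Peg13 rose 1.34-fold (log2 fold change 0.42, SE 0.12, edgeR adjusted p = 0.0222). With 1 surrogate variable and with length and GC trends removed, Peg13 still passed, at 0.21 in both. The call held with each of the 21 mice left out in turn, with log2 fold changes of 0.35 to 0.46. It was lost with the library name form in the model (0.36, edgeR adjusted p = 0.0528), without the 3 libraries of lowest length slope, all of them PBS (0.29, edgeR adjusted p = 0.0705), and with the length slope in the model, where the difference was 0.04 (edgeR adjusted p = 0.802). Within the libraries named SAMP8 it was 0.41 and within those named SAMP 0.24 (edgeR adjusted p = 0.083 and 0.855).

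Pantr1 ran from 25.6 to 70.6 CPM in PBS mice, with a median of 42.4. In HsTX1[R14A] mice it ran from 18.2 to 48.4 CPM, with a median of 29.5. The groups overlapped, with 3 HsTX1[R14A] mice below every PBS mouse and 7 of 9 below the PBS median. Pantr1 fell to 0.66-fold (log2 fold change -0.60, SE 0.20, edgeR adjusted p = 0.0331). This call held in 13 of 21 fits that left out 1 mouse and was lost without PBS female 73, PBS males 90 or 101, HsTX1[R14A] females 71, 72 or 98, or HsTX1[R14A] males 81 or 88, with edgeR adjusted p-values from 0.0506 to 0.0787. With the length slope in the model the log2 fold change was -0.05 (edgeR adjusted p = 0.929), and with the name form it was -0.59 (edgeR adjusted p = 0.0679). The call was also lost without a sex term (-0.52, edgeR adjusted p = 0.07), with 1 surrogate variable (-0.30, edgeR adjusted p = 0.197), with length and GC trends removed (-0.36, edgeR adjusted p = 0.125) and without the 3 libraries of lowest length slope (-0.37, edgeR adjusted p = 0.217). Within the libraries named SAMP8 it was -0.77 and within those named SAMP -0.06 (edgeR adjusted p = 0.0795 and 0.954).

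**Figure D2:**
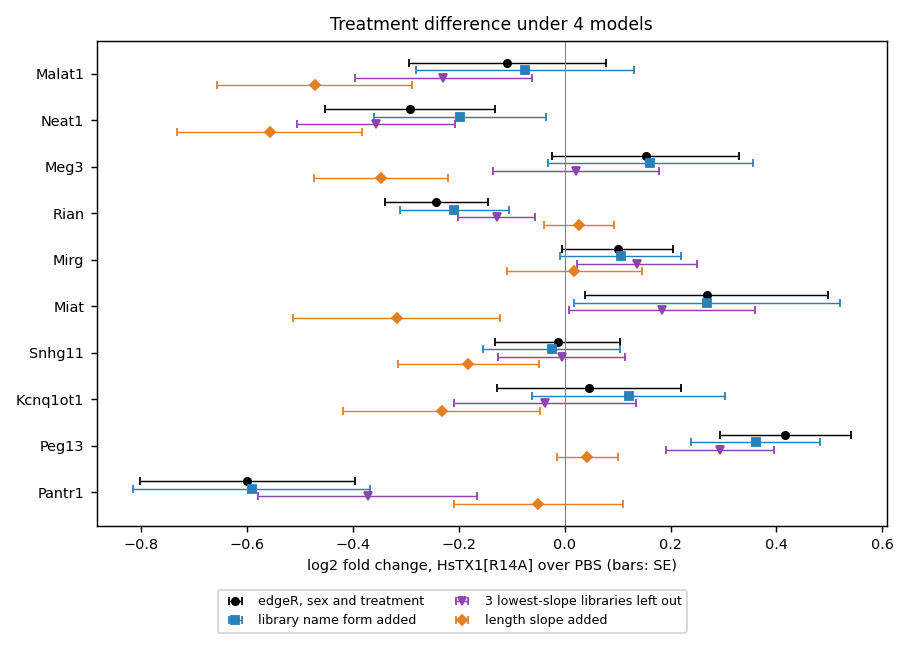
Treatment difference (log2, HsTX1[R14A] against PBS) with its SE on the horizontal axis for each member under 4 models. Peg13 and Pantr1 lie at 0.42 and -0.60 with sex and treatment alone and at 0.04 and -0.05 with the length slope added, and Meg3, Rian, Miat and Kcnq1ot1 lie on the other side of 0 in that model.

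Of the 3 RNAs of the Dlk1-Dio3 locus, none passed the test. Rian, a snoRNA host, ran from 527 to 915 CPM in PBS mice (median 607) and from 507 to 619 in HsTX1[R14A] mice (median 530). Its HsTX1[R14A] values were tightly placed, and 4 of them lay below every PBS mouse. The log2 fold change was -0.24 (SE 0.10, edgeR adjusted p = 0.0601). It passed under DESeq2 (adjusted p = 0.0487), with sample quality weights in limma (adjusted p = 0.048) and in 4 of 21 fits without 1 mouse. Rian was at 0.03 with the length slope in the model and at -0.21 with the library name form (edgeR adjusted p = 0.899 and 0.135). It was at -0.13 without the 3 libraries of lowest length slope and at -0.08 with 1 surrogate variable (edgeR adjusted p = 0.224 and 0.406). Meg3 had a median of 2310 CPM in PBS mice (1390 to 3770) and 2800 in HsTX1[R14A] mice (1700 to 4610), with a log2 fold change of 0.15 (SE 0.18, edgeR adjusted p = 0.505). The sign of Meg3 was not stable. With length and GC trends removed it passed as lower (-0.355, edgeR adjusted p = 0.0291), and with the length slope in the model it was -0.347 (edgeR adjusted p = 0.332). Mirg, a microRNA host, had medians of 21.3 and 22.1 CPM and a log2 fold change of 0.10 (SE 0.11, edgeR adjusted p = 0.463).

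The locus RNAs did not keep 1 ratio within each mouse. The ratio of Meg3 to Rian counts ran from 1.55 to 6.54 across PBS mice (median 3.92) and from 2.75 to 7.88 across HsTX1[R14A] mice (median 5.41). Its lowest value was in PBS female 103 and its highest in HsTX1[R14A] female 98, the libraries with the lowest and the highest length slope. The log2 ratio was higher by 0.43 in HsTX1[R14A] mice with the sexes averaged, and lower by a difference of -0.36 with the length slope in the model. The ratio of Peg13 to Trappc9 had a median of 8.29 in PBS mice and 6.99 in HsTX1[R14A] mice. These ratios were chosen after values had been seen and are given with no test.

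Malat1 and Neat1 did not pass the test either. Malat1 had a median of 776 CPM in PBS mice (412 to 1170) and 640 in HsTX1[R14A] mice (508 to 1410), where female 98 alone lay above every PBS mouse. Its log2 fold change was -0.11 (SE 0.19, edgeR adjusted p = 0.665). Without HsTX1[R14A] female 98 it was -0.29 for Malat1, 0.036 for Meg3, 0.14 for Miat and -0.15 for Snhg11, and none of these passed. Neat1 had medians of 93.6 (49.5 to 135) and 75.2 CPM (54.4 to 104), with a log2 fold change of -0.29 (SE 0.16, edgeR adjusted p = 0.153). It passed with 1 surrogate variable (-0.49, edgeR adjusted p = 0.027) and with length and GC trends removed (-0.83, edgeR adjusted p = 0.00935). That removal took Neat1 at its longest transcript, 20771 bases, although the short form is in the same count. Neat1 did not pass with the library name form in the model (-0.20, edgeR adjusted p = 0.358). Within the libraries named SAMP it was 0.10 (edgeR adjusted p = 0.905).

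For Miat, Snhg11 and Kcnq1ot1 the groups also overlapped. Miat had medians of 162 CPM (56.9 to 272) in PBS mice and 182 (130 to 359) in HsTX1[R14A] mice, with a log2 fold change of 0.27 (SE 0.23). Snhg11 had medians of 1400 (1130 to 1940) and 1290 (1140 to 2270), and a log2 fold change of -0.01 (SE 0.12). Kcnq1ot1 had medians of 98.3 (54.8 to 210) and 109 (68 to 126), and a log2 fold change of 0.05 (SE 0.17). The edgeR adjusted p-values were 0.362, 0.938 and 0.852.

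The levels of 6 of the 10 members were correlated with the length slope among the PBS mice alone, which all had the same injections. Peg13 rose with it most tightly, with a Pearson's r of 0.981 (permutation p = 1e-05, adjusted p = 0.0001 over 10 relations, n = 12) and a Spearman's rho of 0.944 (permutation p = 3e-05), and r was 0.953 once the 2 libraries with the most extreme slopes were dropped. The p of 1e-05 is the smallest that 100000 resamples can give. Rian fell with it (r = -0.904, permutation p = 0.00019, adjusted p = 0.00095, rho = -0.762 with permutation p = 0.0052, and r = -0.675 without those 2 libraries), as did Pantr1 (r = -0.799, permutation p = 0.00154, adjusted p = 0.00385, rho = -0.867 with permutation p = 0.00048, and r = -0.85). Meg3 (r = 0.855, permutation p = 0.00052, adjusted p = 0.00173, rho = 0.678 with permutation p = 0.0182, and r = 0.621) went the other way. Within the 10 PBS libraries named SAMP8, r was 0.99 for Peg13, -0.907 for Rian, -0.811 for Pantr1 and 0.978 for Meg3. Malat1 and Miat also passed in Pearson's r (0.746 and 0.789, permutation adjusted p = 0.00902 and 0.00462), with r of 0.382 and 0.387 without the 2 farthest libraries. Without those libraries Peg13 and Pantr1 passed, and Rian, Meg3, Malat1 and Miat did not (permutation adjusted p = 0.11, 0.142, 0.457 and 0.457). These 4 relations were weaker there, with fewer mice and a narrower range of slopes. Across all 21 mice with group means removed they passed, with r of -0.869, 0.838, 0.609 and 0.791 in that order (permutation adjusted p at most 0.00558). Neat1, Mirg, Snhg11 and Kcnq1ot1 did not pass across the 12 PBS mice. Across the 21 mice with group means removed, Neat1 (r = 0.483) and Kcnq1ot1 (r = 0.5) passed (permutation adjusted p = 0.0339 and 0.0297). Within the 10 PBS libraries named SAMP8, Neat1, Snhg11 and Kcnq1ot1 passed (permutation adjusted p = 0.0144, 0.0376 and 0.0376). Mirg passed in neither setting. The slope is taken over the genes of each library, and the share of all genes that follow it was not measured. That 6 of 10 members passed across the PBS mice is thus not shown to be particular to them.

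**Figure D3:**
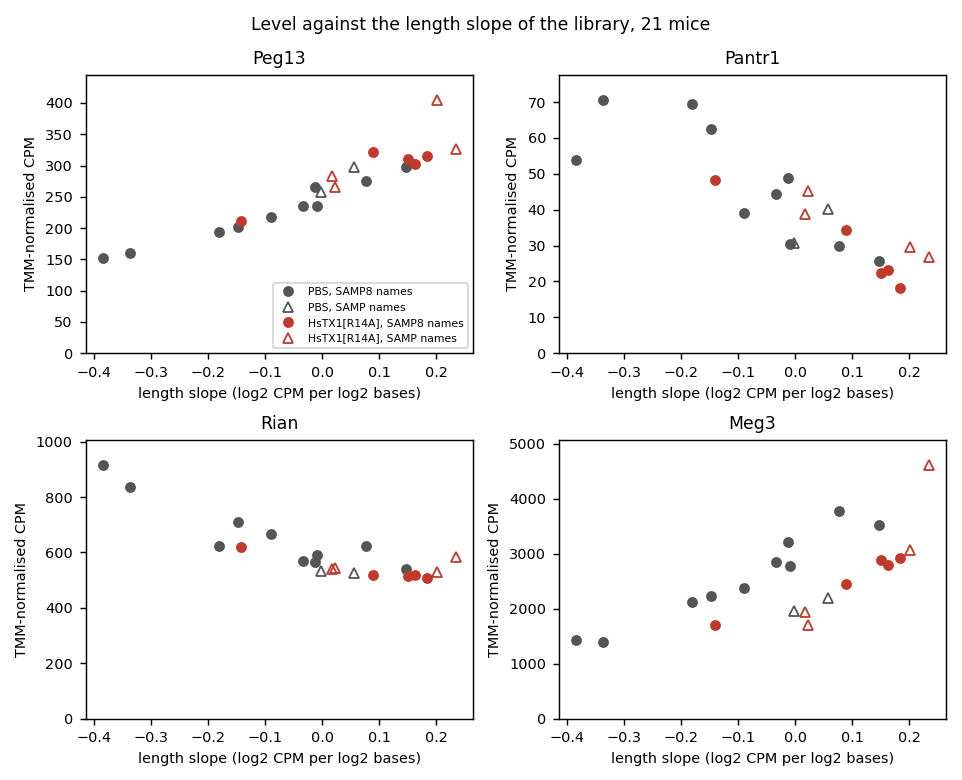
CPM (vertical axes, from 0) of Peg13, Pantr1, Rian and Meg3 against the length slope of the library (horizontal axis, log2 CPM per log2 bases) in 21 mice, with PBS in grey and HsTX1[R14A] in red, and circles and triangles for the SAMP8 and SAMP forms of the library name. Peg13 lies at 152 CPM at the lowest slope of -0.384 and at 326 at the highest of 0.2339, and its highest value, 405, is at a slope of 0.2005.

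Across the same 12 PBS mice, the members were also correlated with one another. Of 45 pairs, 31 had a positive and 14 a negative Pearson's r, and 18 and 4 of them passed a permutation test with adjustment over the 45 pairs. Malat1 and Meg3, from different chromosomes, were the closest pair, with r = 0.968 (permutation p = 1e-05, adjusted p = 0.00045), rho = 0.979 (permutation p = 1e-05) and r = 0.944 without the 2 farthest libraries. The neighbours Malat1 and Neat1 had r = 0.791 (permutation p = 0.00187, adjusted p = 0.0104), rho = 0.734 (permutation p = 0.00863) and r = 0.69. Within the 10 PBS libraries named SAMP8, r was 0.981 for Malat1 and Meg3 and 0.776 for Malat1 and Neat1, and the other name form held 2 PBS libraries, too few for a value. All members share each library's length slope, depth and mitochondrial share, as other genes do. How many pairs of other genes correlate as closely was not measured. That 18 and 4 of 45 pairs passed is thus not shown to be particular to the members. Leaving out the 2 farthest libraries, 1 positive and 0 negative pairs passed. For each pair these were the 2 libraries farthest from the median of 1 of its members, so they could differ between pairs.

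For the RNAs of the Dlk1-Dio3 locus, Meg3 and Rian had r = -0.686 (permutation adjusted p = 0.0319) with a rho whose adjusted p was 0.401, while Meg3 and Mirg had r = 0.33 (permutation adjusted p = 0.389) and Rian and Mirg r = 0.106 (permutation adjusted p = 0.793). Peg13 and Rian had r = -0.914 (permutation adjusted p = 0.00315), and Peg13 and Pantr1 r = -0.751 (permutation adjusted p = 0.0145). Mirg was close to Kcnq1ot1, with r = 0.772 (permutation adjusted p = 0.0121).

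**Figure D4:**
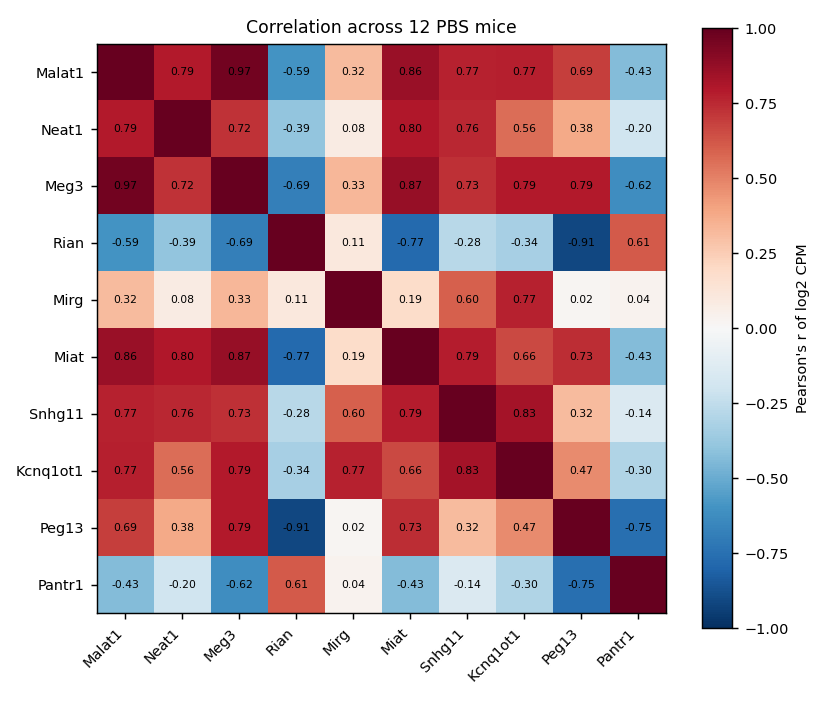
Pearson's r of log2 CPM between members across 12 PBS mice, from -1 in blue to 1 in red, with r printed in each cell. Malat1 and Meg3 have the highest r (0.968) and Rian and Peg13 the lowest (-0.914).

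The genes whose pattern was most like each member, by Pearson's r of log2 CPM over 21 mice with group means removed and among 10452 genes, are given as a description. Peg13 was nearest to Aqr (0.987) and Sec31a (0.986), Meg3 to Leng8 (0.981) and Rbm33 (0.976), and Malat1 to Trank1 (0.944) and Naa40 (0.927). Snhg11 was nearest to Pnisr (0.967) and Srsf11 (0.943), Miat to Ankrd27 (0.963) and Cttnbp2 (0.96), and Pantr1 to Llph (0.946) and Camk2n1 (0.941). Rian was nearest to March7, listed in the table as a date and named here by its gene ID (0.945), and Gnl3 (0.93). Mirg was nearest to A230050P20Rik (0.935) and Jmjd8 (0.878), Kcnq1ot1 to Sike1 (0.886) and Cspp1 (0.877), and Neat1 to Appl2 (0.846) and Pogk (0.822).

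No member passed the test for sex or for a treatment by sex interaction. With edgeR, 0.0552% of all genes passed for sex and 0% for the interaction, where 270 genes had an unadjusted p under 0.05. Malat1, Meg3, Mirg and Kcnq1ot1 were lower in males with log2 differences of -0.41, -0.41, -0.28 and -0.45 (edgeR adjusted p = 0.446 for each). The interaction was largest in size for Miat, at -0.73 (SE 0.45, edgeR adjusted p = 1).

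Of 5 genes tested in the Peg13 domain, Trappc9 (log2 fold change 0.64, edgeR adjusted p = 0.0174), the potassium channel gene Kcnk9 (1.25, edgeR adjusted p = 0.0151) and the microRNA effector Ago2 (0.90, edgeR adjusted p = 0.0216) rose, and Chrac1 (-0.42) and Ptk2 (0.20) did not pass. The median was 0.64, against -0.01 over all genes. With the length slope in the model, 0 of 16303 genes passed. Of 8 protein genes at and around Dlk1-Dio3, beside 15.5% higher and 16.1% lower among all genes, 2 rose (Wars, 0.31, and Dync1h1, 0.96), 1 fell (Ppp2r5c, -0.25) and 5 did not pass, among them Dlk1 (0.89, SE 0.48, edgeR adjusted p = 0.15), Rtl1 (0.88, SE 0.40, edgeR adjusted p = 0.0894) and Dio3 (0.83, SE 0.37, edgeR adjusted p = 0.0839).

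These counts are to be read against the 15.5% of all genes that were higher and the 16.1% that were lower. In the paraspeckle and nuclear speckle lists 16.7% and 14.3% were higher, close to the share of all genes, and 0 were lower. Of 12 paraspeckle proteins, Sfpq (0.47) and Rbm14 (0.53) rose and 10 did not pass, and of 14 nuclear speckle proteins Prpf8 (0.70) and Acin1 (0.45) rose and 12 did not pass. Of 8 tested genes of the Kcnq1 domain, Dhcr7 rose (0.26) and the cell cycle inhibitor Cdkn1c fell (-0.42). Among 10 neighbours of Malat1 and Neat1, Ltbp3 (0.62) and Dpf2 (0.33) rose and Slc25a45 (-0.31) fell, while Frmd8 (0.02) did not pass. Pou3f3, beside Pantr1, had a log2 fold change of 0.12 (edgeR adjusted p = 0.323). Beside Snhg11, Ralgapb rose (0.30), and beside Miat, Tfip11 rose (0.26).

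Spliced host RNAs of snoRNAs and microRNAs had 0 of 14 higher, 7 lower and a median of -0.26, where 15.5% of all genes were higher and 16.1% lower with a median of -0.01. Snhg3 (-0.79, edgeR adjusted p = 0.0151) and Snhg6 (-0.78, edgeR adjusted p = 0.017) had the smallest p-values. Of 21 other brain noncoding RNAs 1 rose and 3 fell, with 2900097C17Rik (0.26) and Sox2ot (-0.29) at the smallest p-values. Over all 909 annotated long noncoding genes tested, 16 were higher and 165 lower with a median of -0.20, against 2473 higher and 2331 lower of 14582 protein-coding genes with a median of 0.00297.

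Markers of brain cell types were present in every library. Summed over 5 markers each, neurons had medians of 4620 CPM in PBS mice (3610 to 5980) and 4740 in HsTX1[R14A] mice (3790 to 6220), and oligodendrocytes 3830 (3460 to 4960) and 3450 (2500 to 3890). Astrocytes had 1230 (827 to 1550) and 1110 (863 to 1270), and microglia 370 (327 to 468) and 305 (275 to 411). Of the single markers 2 of 5 for astrocytes, 2 of 5 for oligodendrocytes, 1 of 5 for microglia and 2 of 4 for ependyma were lower, and 1 of 5 for neurons and 1 of 5 for endothelium higher, where 31.6% of all genes passed in either direction. Choroid plexus markers ran from 67.3 to 1120 CPM in PBS mice and from 57.6 to 826 in HsTX1[R14A] mice, erythrocyte genes from 5.82 to 157 and 15.1 to 87.6, and pituitary genes from 1.21 to 33.9 and 0.593 to 28.8, each with 0 genes past the test. The part of cell makeup in the members' levels was not tested.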

How the data were processed

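Whole-brain RNA of 21 SAMP8 mice was sequenced with 1 library per mouse. The authors processed reads with the NfCore RNAseq pipeline (v3.2), aligned them with STAR to GRCm38 and deposited Salmon's estimated counts, not normalized, for 16318 genes. How those genes were filtered is not given in the sources used here. Another 53 columns of per-sample values, and the authors' fold changes and p-values, were not used.

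Counts were rounded (90.496% lay within 0.01 of a whole number) and genes matched by ID to GENCODE M21 (16239 of 16318). After filterByExpr, 16303 genes were kept. TMM factors were used, with the quasi-likelihood test of edgeR 4.0.16 in R 4.3.3, and p-values were adjusted by the Benjamini-Hochberg method. Log2 CPM carried a prior count of 2. Alternatives used limma 3.58.1, DESeq2 1.42.0, sva 3.50.0, other scalings, filters and covariates, and each mouse left out. Correlations were tested by 100000 permutations in Python 3.11.15. On simulated data for the treatment comparison, 175 of 200 genes changed 2-fold among 16303 were recovered, with 6 false calls. Every member differed by less than 2-fold between treatments, so this does not give the recovery of differences of their size. No 2 libraries of a group differed by sampling noise alone (48 pairs, mean chi-square per gene of at least 7.58). Library totals of 14917174 to 47613792 counts gave 301 to 137828 counts per member and mouse, so the spread between mice sets the precision.

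The members and gene lists were chosen with earlier results of these data known. Named genes were the members, genes that overlap or neighbour them, otherwise the 2 of smallest p-value per list, and the 2 most alike genes per member. Of these, 1 neighbouring gene is not reported here. Leaving out the 3 libraries of lowest length slope was chosen after seeing the data.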

Additional observations from a re-analysis of the deposited data

Results flagged for a closer look

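Rian in HsTX1[R14A] male 93 was at 619 CPM, while the other 5 males of that group lay between 514 and 545 CPM, and its gap to the nearest of them was 0.68 of the range of the group on the log2 scale. It was the only such value in 30 sets of 1 member in 1 group of 6 mice, and chance alone gives such a value in about 5% of sets. The same library had the lowest length slope of the HsTX1[R14A] mice, -0.141, and the highest Pantr1 (48.4 CPM) and lowest Peg13 (212 CPM) among them. The part of the length slope in this value was not tested.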

How the results depend on the processing

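By the study's methods, mice were randomized to peptide or PBS within their cages. The sample labels give no cage, so no analysis paired or blocked by cage was possible. Peg13 and Pantr1 kept their direction under every alternative run, and the threshold was lost as follows. With the length slope in the model, 0 members were higher, 0 lower and 0 genes passed in all, against 5144 without it. Treatment log2 fold changes then changed sign for Meg3 (-0.347), Rian (0.0271), Miat (-0.317) and Kcnq1ot1 (-0.232), sex differences for Neat1 (0.094), Miat (0.0369) and Peg13 (0.0437), and interactions for Rian (-0.0657) and Mirg (0.0116). With the library name form in the model, 0 members were higher, 0 lower and 1999 genes passed, and the sex difference of Rian was 0.00082. In each name form alone, in females alone and in males alone, 0 members were higher, 0 lower and 0 genes passed, with fewer mice in each fit. In the less common form the treatment values of Malat1 (0.482), Neat1 (0.0966), Rian (0.0719) and Snhg11 (0.464) changed sign, in females those of Malat1 (0.0845), Snhg11 (0.142) and Kcnq1ot1 (-0.113), and in males that of Miat (-0.0283). Without the 3 libraries of lowest length slope, chosen after seeing the data, 0 members were higher, 0 lower and 674 genes passed, with Kcnq1ot1 at -0.0368 and the sex difference of Rian at 0.0108. Without a sex term, 0 members were lower (Pantr1 at -0.516), 2984 genes passed and Kcnq1ot1 was at -0.0493. With 1 surrogate variable, 2110 genes passed, Pantr1 lost its call (-0.298, edgeR adjusted p = 0.197), Neat1 gained one (-0.485), Peg13 kept its call at 0.208, and Meg3 (-0.158), Miat (-0.0801) and Kcnq1ot1 (-0.144) changed sign. With length and GC trends removed, 2499 genes passed, Pantr1 lost its call (-0.358), Peg13 kept its call at 0.206, 2 members were lower (Neat1 and Meg3), and Meg3 (-0.355), Mirg (-0.0504), Miat (-0.267) and Kcnq1ot1 (-0.462) changed sign. With sample quality weights 2 members were lower, with Meg3 at -0.0486 and Kcnq1ot1 at -0.0941. With DESeq2 2 members were lower, and 26 genes passed for sex, against 1 with at least 10 counts in every mouse, 9 in the reported fit and 7 to 11 with each mouse left out. With TMM from nuclear protein-coding genes the sex difference of Rian was 0.00101. The causes were not tested.

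With each mouse left out in turn, 0 to 2 members were lower, and 2289 (without PBS male 90) to 6614 genes (without HsTX1[R14A] male 93) passed for treatment. Treatment log2 fold changes ran from -0.152 to 0.0309 for Snhg11 and from -0.0113 to 0.131 for Kcnq1ot1, sex differences from -0.128 to 0.00543 for Neat1 and from -0.0514 to 0.0778 for Rian, and interactions from -0.589 to 0.104 for Malat1, from -0.0822 to 0.142 for Rian, from -0.145 to 0.107 for Mirg and from -0.425 to 0.0537 for Snhg11. Among correlations across PBS mice, 1 positive and 0 negative pairs passed without the 2 farthest libraries, against 18 and 4 with them, and 7 negative pairs passed in the more common name form. With the length slope, 1 positive and 1 negative relation passed without the 2 farthest libraries, and 7 positive ones in the more common name form. Meg3 and Mirg (-0.0107 without the 2 farthest) and Rian and Mirg (-0.0927 in the more common form) changed sign. Over all 45 pairs the sign changed in 8 without the 2 farthest libraries, in 3 in the more common form and in 1 across all mice with group means removed, and 0 of these pairs had passed the test. With the longest transcript as length, 4 members kept their rank in level.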
